A study of Caenorhabditis elegans with 5 samples.

Results

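The genes that worms need to make, load, recapture and control dopamine were followed through messenger RNA of sorted neurons from wildtype and thoc-5(wy822) animals. The 9 genes were listed by name for their known roles, out of 42048 genes in the table. All but one carry their symbols there, while swip-10 is listed as F53B1.6, which RefSeq's locus tag pairs with it. Both groups were Day 1 adults from cultures kept at 16 °C, and both carry edIs6, which is known as an integrated unc-119 GFP reporter of the nervous system. The wildtype group held 2 libraries and the thoc-5(wy822) group 3. The labels leave it unsaid whether the libraries were grown as separate cultures. The p-values here thus speak only of the spread among these 5 libraries, which may be technical. The THO complex, to which THOC-5 belongs, packages nascent messenger RNA for export from the nucleus.

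Dopamine is made from tyrosine in a pair of steps. A hydroxylase adds a hydroxyl group with the help of tetrahydrobiopterin, a cofactor built from GTP, and a decarboxylase then removes the carboxyl group. A vesicular transporter loads the product into vesicles, and a plasma membrane transporter takes it back after release. In hermaphrodites only the CEP, ADE and PDE sensory neurons make dopamine, which slows locomotion on food. An ETS factor and a Distal-less homeobox factor switch on the whole set of genes in these cells.

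Positions are those of the Ensembl annotation of WBcel235, because the table carries no coordinates. The synthesis genes are cat-2 (WBGene00000296, chromosome II, 257819 to 261074, plus strand), bas-1 (WBGene00000239, III, 5612274 to 5614660, plus), cat-4 (WBGene00000298, V, 10564880 to 10566464, plus) and ptps-1 (WBGene00015010, I, 4652145 to 4652906, minus). The transporter genes are cat-1 (WBGene00000295, X, 5705690 to 5710737, minus) and dat-1 (WBGene00000934, III, 9242975 to 9246802, plus). The transcription factor genes are ast-1 (WBGene00020368, II, 4127837 to 4135359, minus) and ceh-43 (WBGene00000463, III, 4446638 to 4449943, minus). The glial gene swip-10 (WBGene00018738) lies on X, 2114618 to 2118262, minus strand. All 9 are protein coding. The library kit does not mark strand, and exons of ast-1 share 17 bases with the opposite-strand gene rhgf-2 and those of cat-4 share 63 bases with vps-54, so reads there cannot be assigned to one of the partners. The decarboxylase paralog basl-1 begins 287 bases after bas-1, and how reads that fit both were counted by the authors is not stated in the labels.

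The libraries differed widely in the share of reads from pan-neuronal genes. Depth was 10.3 and 10.2 M reads on genes in wildtype and 6.80 M to 8.69 M in the mutant. A list of 19 pan-neuronal genes made up 0.438% of all reads in wildtype replicate 1 and 0.0413% in wildtype replicate 2, while its share in the mutant libraries was 1.15% to 2.01%. Of these 19 genes 17 were higher in all mutant libraries than in both wildtype libraries, and unc-31 had no read in wildtype replicate 2, the library that stood apart by its low neuronal content. Epidermal markers lay the other way, with 8.86% and 5.89% of reads in wildtype and 0.207% to 1.01% in the mutant, most of them from adult collagens such as col-140 and col-119. Of 13 epidermal markers tested 5 lay below both wildtype libraries in all mutant libraries, and 1, rol-6, lay above both (215 and 226 normalised counts against 1804, 619 and 638). bli-1 had no read in mutant replicates 1 and 3 but was highest of all in mutant replicate 2, at 320.3 against 67.2 and 297 in wildtype, and nhr-25 also had no read in mutant replicates 1 and 3. Of 10 muscle markers tested 8 lay below, as did 8 of 10 intestinal and 10 of 10 germline markers, against 26.5% of all genes. Markers of coelomocytes, scavenger cells of the body cavity, lay on the side of the neuronal genes, with 0.0312% and 0.00432% of reads in wildtype, 0.153% to 0.266% in the mutant, and 3 of 3 above wildtype in all mutant libraries, against 30.1% of all genes. The part of this difference in cell content in the values below was not tested, and in bulk RNA fewer cells of a type and less RNA per cell cannot be told apart. The gene named in the mutant genotype, thoc-5, listed as Y32H12A.2, had 154 and 122.2 normalised counts in wildtype and 78.3, 34.6 and 12.7 in the mutant.

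Of the 9 genes, ast-1 and cat-2 rose in the mutant. The levels of cat-1, dat-1 and ceh-43 were higher and that of swip-10 was lower in every mutant library without passing the test, and cat-4, bas-1 and ptps-1 overlapped between the groups. Values are normalised read counts, that is reads divided by the authors' size factor of the library. A log2 difference is mutant minus wildtype after adding 1, fitted with limma over 13787 genes, with p-values adjusted over all of them. All 9 genes passed the filter on low values. At an adjusted p below 0.05, 2 of the 9 rose, ast-1 and cat-2, against 6.97% of all genes tested, and none fell, against 5.92%. For 5 of the 9 every mutant library lay above both wildtype libraries, which held for 30.1% of all genes, and for 1 every mutant library lay below, which held for 26.5%. The authors' deposited table calls 3 of the 9 higher (ast-1, cat-2 and ceh-43) and none lower, where it calls 13.4% and 10.7% of its genes with an adjusted p. Together the 9 genes made up 0.0166% and 0.00705% of reads in wildtype, against 0.0982%, 0.0610% and 0.0960% in mutant replicates 1 to 3.

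**Figure D1:**
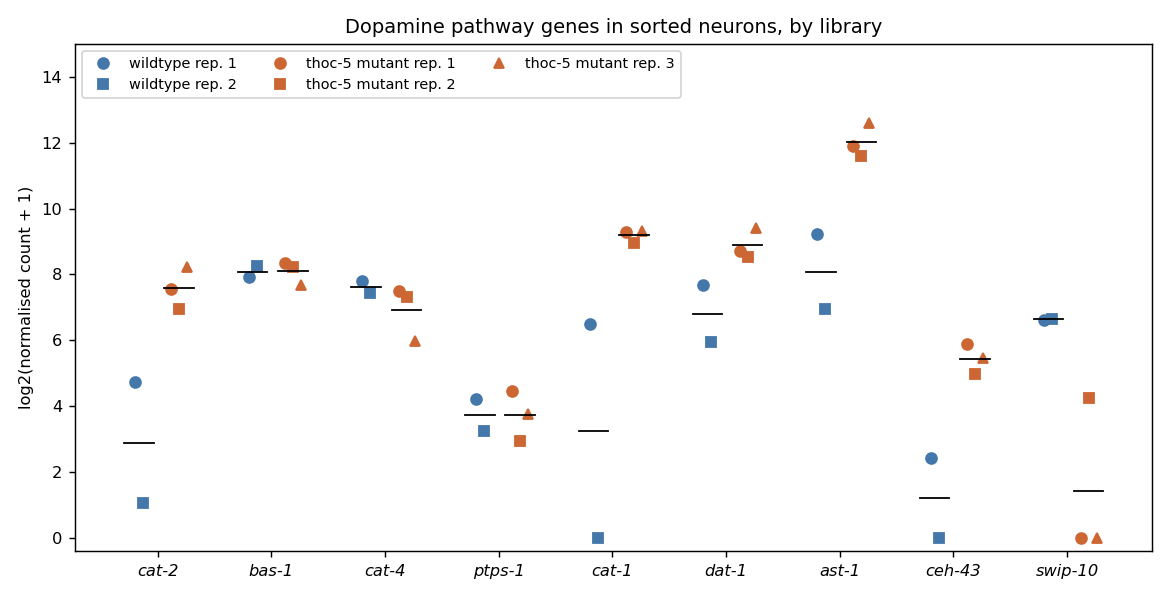
Level of each of the 9 genes, as log2(normalised count + 1), in each of 2 wildtype (blue) and 3 thoc-5 mutant (orange) libraries. Bars mark the mean of a group. All mutant points lie above both wildtype points for cat-2, cat-1, dat-1, ast-1 and ceh-43, below them for swip-10, and among them for bas-1, cat-4 and ptps-1.

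Of the synthesis genes, cat-2 was the one that rose. It encodes tyrosine hydroxylase, the enzyme whose presence defines a dopamine neuron. Its normalised counts were 25.3 and 1.06 in the wildtype pair, against 186, 121.7 and 301 in mutant replicates 1 to 3. Each mutant library lay above both wildtype libraries, and wildtype replicate 2 held a single cat-2 read. Mean levels were 13.2 ± 17.1 (SD, n = 2) in wildtype and 203 ± 91.0 (SD, n = 3) in the mutant. The log2 difference was 4.69 (SE 1.18, adjusted p = 0.0490). With exact 95% intervals for counting error only, the RPM (reads per M reads of the library) of cat-2 was 2.81 (1.88 to 4.04) and 0.0978 (0.00248 to 0.545) in wildtype. The mutant libraries gave 32.2 (28.2 to 36.6), 16.04 (13.2 to 19.3) and 35.6 (31.7 to 39.8). These counting intervals do not overlap between the groups. Without wildtype replicate 2 the log2 difference was 2.86. Without any 1 mutant replicate it was 4.36 to 5.01 and did not pass (adjusted p = 0.0914 to 0.161), but then 0 of 13787 genes passed. Over all alternatives the adjusted p of cat-2 ran from 0.00605 to 0.280.

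The decarboxylase gene bas-1, whose product finishes both dopamine and serotonin, overlapped between the groups. Its normalised counts were 243 and 302 in wildtype, against 324, 299 and 206 in mutant replicates 1 to 3. Wildtype replicate 2 and mutant replicate 2 were nearly equal, and the log2 difference was 0.00 (SE 0.45, 95% interval -1.07 to 1.07, adjusted p = 0.998). A change of 1 log2 unit in either direction therefore lies within the interval. The adjacent paralog basl-1 had 18.1 normalised counts in its highest library.

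Both genes of tetrahydrobiopterin synthesis also overlapped between the groups. The cofactor serves serotonin synthesis as well, and in worms it is needed for an intact cuticle. GTP cyclohydrolase, the first enzyme of its synthesis, is encoded by cat-4, with 221 and 172 normalised counts in wildtype and 180.2, 159.6 and 61.4 in the mutant. Mutant replicate 3 was the lowest, and the log2 difference of -0.68 did not pass (SE 0.63, 95% interval -2.21 to 0.84, adjusted p = 0.466). The next enzyme, pyruvoyl-tetrahydropterin synthase, is encoded by ptps-1, which had 17.4 and 8.50 in wildtype, against 21.1, 6.70 and 12.7 in the mutant. At 6 to 27 reads a library its log2 difference of 0.00 had a wide interval, -2.43 to 2.43 (SE 1.01, adjusted p = 0.999).

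The transporter genes were higher in every mutant library without passing the test. VMAT, the vesicular transporter for dopamine, serotonin, octopamine and tyramine, is encoded by cat-1. It had 89.8 and 0 normalised counts in wildtype and 629, 492 and 643 in the mutant. The mutant libraries lay close together and all above wildtype, where only replicate 1 held the transcript. Wildtype replicate 2 held 0 reads, which allows up to 0.293 RPM, against 9.99 (95% interval 8.16 to 12.1) in wildtype replicate 1 and 64.9 to 109.2 in the mutant. The log2 difference was 5.94 (SE 1.72, adjusted p = 0.0625). Without wildtype replicate 2 it was 2.69 (adjusted p = 0.132), and without wildtype replicate 1 it was 9.19 (adjusted p = 0.0122), so the size rests on that 1 library and on the 1 added before the log. Over all alternatives the adjusted p of cat-1 ran from 0.0122 to 0.213.

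The plasma membrane dopamine transporter gene dat-1, which in worms marks dopamine neurons alone, differed least of the genes that were higher. Its normalised counts were 202 and 60.6 in wildtype, against 417, 372 and 679 in the mutant. The mutant libraries again lay above both wildtype libraries, by a smaller factor than for cat-1 and cat-2. Means were 131 ± 100.3 (SD, n = 2) and 489.5 ± 166 (SD, n = 3), a ratio of 3.72. The log2 difference was 2.08 (SE 0.64, adjusted p = 0.0696), 1.22 without wildtype replicate 2 (adjusted p = 0.235) and 2.94 without wildtype replicate 1 (adjusted p = 0.0321). Over all alternatives its adjusted p ran from 0.0321 to 0.371.

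Both transcription factor genes were higher in every mutant library. The ETS factor gene ast-1, required for all dopamine neurons to acquire their identity and also expressed in some other neurons, had 593 and 122.2 normalised counts in wildtype and 3839, 3129 and 6177 in the mutant. The lowest mutant library was more than 5 times the highest wildtype library. The log2 difference of 3.96 passed (SE 0.73, adjusted p = 0.0384), with mean levels of 358 ± 333 (SD, n = 2) and 4381 ± 1595 (SD, n = 3). Without wildtype replicate 2 the log2 difference was 2.82. Without any 1 mutant replicate it was 3.68 to 4.17 and did not pass (adjusted p = 0.0655 to 0.133), but then 0 of 13787 genes passed. Over all alternatives the adjusted p of ast-1 ran from 0.000301 to 0.4997. The homeobox gene ceh-43, the worm Distal-less homolog, was scarce, with 4.36 and 0 normalised counts in wildtype (5 and 0 reads) and 58.7, 30.1 and 42.9 in the mutant (75, 27 and 44 reads). All mutant libraries lay above wildtype, and the log2 difference of 4.23 did not pass (SE 1.12, adjusted p = 0.0531). Leaving out wildtype replicate 1 gave 5.44, which passed (adjusted p = 0.0313), and leaving out replicate 2 gave 3.02 (adjusted p = 0.166), within a range of 0.00865 to 0.544 over all alternatives. A log2 fold change of 3.74 stands for ceh-43 in the authors' deposited table (adjusted p = 0.00865). The gene stood at 0.485 RPM (95% interval 0.158 to 1.13) in wildtype replicate 1 and at 3.97 (2.62 to 5.78) in the lowest mutant library.

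The glial gene swip-10 was the one with every mutant library below wildtype. It encodes a metallo-beta-lactamase domain protein that acts in glia to hold down dopamine neuron activity in worms. Its normalised counts were 97.7 and 99.9 in wildtype, against 0, 17.9 and 0 in mutant replicates 1 to 3. Both wildtype libraries were alike, and the only mutant library with swip-10 reads was replicate 2, with 16. The log2 difference was -5.23 (SE 1.54, adjusted p = 0.0643), a size that depends on the 1 added to the libraries at 0. With 8 added instead, limma called swip-10 lower (adjusted p = 0.0276), among 1480 of 13787 genes called lower. It was also called lower relative to pan-neuronal genes (adjusted p = 0.00131, described below), where 51.8% of all genes were. No other alternative called swip-10. In the authors' deposited table its log2 fold change is -3.15, again not called (adjusted p = 0.104). A count of 0 allows up to 0.408 and 0.345 RPM in mutant replicates 1 and 3, against 10.9 and 9.19 measured in wildtype. Mutant replicate 2, the one mutant library with swip-10 reads, also held the largest share of epidermal marker reads among the mutant libraries, 1.01% against 0.237% and 0.207%; the part of this in the swip-10 values was not tested. A list of 11 glial markers was mixed. Of its 9 tested genes 6 had a log2 difference above 0 (median 1.34). Without wildtype replicate 2 the difference was -2.50 for vap-1, -2.33 for fig-1 and -1.39 for F16F9.3. It was above 0 for the other tested genes. The list took 0.0201% and 0.0117% of reads in wildtype and 0.0332% to 0.0604% in the mutant. No gene was called among the 9 tested, and none lay below wildtype in all mutant libraries. The CEP sheath glia factor gene hlh-17 had 41.0 and 0 normalised counts in wildtype and 76.0, 31.2 and 94.5 in the mutant, and delm-1 was at 0 reads in every library.

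Levels were also compared per length. The values here are normalised counts per kilobase of annotated exon. In the mutant ast-1 led at 2281 ± 830.3 (SD, n = 3), apart from the next gene. It was followed by cat-1 (293 ± 41.5), dat-1 (236 ± 80.05), bas-1 (168 ± 38.0), cat-4 (146 ± 69.5), cat-2 (83.3 ± 37.4), ceh-43 (41.7 ± 13.6) and ptps-1 (29.1 ± 15.7), each of which overlapped its neighbours in that order. The last gene, swip-10, stood apart at 3.55 ± 6.14. In wildtype the order was cat-4 (215 ± 37.6, SD, n = 2), ast-1 (186 ± 173), bas-1 (166 ± 25.1), dat-1 (63.4 ± 48.3), swip-10 (58.9 ± 0.923), ptps-1 (28.0 ± 13.6), cat-1 (22.4 ± 31.6), cat-2 (5.41 ± 7.04) and ceh-43 (2.07 ± 2.93). Only the steps from bas-1 to dat-1 and from swip-10 to ptps-1 were free of overlap there. The order differed between the wildtype libraries, with ast-1 first in replicate 1 (308.7 against 241.7 for cat-4), as in the mutant, and cat-4 first in replicate 2 (188.5 against 63.6 for ast-1).

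Set against pan-neuronal genes of the same library, the genes divided into a higher and a lower set. For this, the mean log2 level of the 19 pan-neuronal genes was subtracted from each library, which asks how a gene stood relative to that list mean. The genes of the list spread widely around it in wildtype replicate 2. There unc-119, rab-3 and unc-11 stood at 1.83, 1.95 and 1.96, and unc-10 and sng-1 at -1.96 and -5.09. The list mean thus does not stand for every neuronal gene of that library. ast-1 lay above that mean by 0.78 and 0.81 on the log2 scale in wildtype and by 1.26, 1.501 and 2.01 in the mutant. cat-2 stood at -3.72 and -5.09 in wildtype, against -3.10, -3.17 and -2.34 in the mutant. cat-1 stood at -1.93 and -6.13 in wildtype, against -1.35, -1.16 and -1.25 in the mutant, where the value for wildtype replicate 2 is that of a count of 0. Those 3 genes and ceh-43 were higher in all mutant libraries than in both wildtype libraries, 4 of 9 against 3.74% of all genes, although none of the 4 passed in limma on this scale, where 0.312% of all genes were called higher. Their log2 differences were 0.80 for ast-1 (adjusted p = 0.4997), 1.53 for cat-2 (adjusted p = 0.280), 2.78 for cat-1 (adjusted p = 0.0633) and 1.07 for ceh-43 (adjusted p = 0.544). The place of ceh-43 is not determined by its reads, since the limit of 3 reads in wildtype replicate 2 stands at -4.07 on this scale, above its mutant values of -4.75, -5.15 and -5.13.

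On the same scale the sign of dat-1 turned. Centring takes the list's own rise from every gene, so a smaller positive difference turns negative. That also held for snb-1 of the list itself, with a log2 difference of 0.74 before centring. After centring snb-1 stood at -2.16 and -0.14 in wildtype, against -3.50, -3.95 and -3.24 in the mutant. dat-1 stood at -0.77 and -0.19 in wildtype, against -1.94, -1.57 and -1.17 in the mutant. Its log2 difference of -1.08 did not pass (adjusted p = 0.371). The remaining genes of the 9, bas-1, cat-4, ptps-1 and swip-10, were also lower in all mutant libraries, so that 5 of 9 lay below, against 66.1% of all genes. Limma called cat-4 (log2 difference -3.84, adjusted p = 0.00926), bas-1 (-3.16, adjusted p = 0.0205) and swip-10 (-8.39, adjusted p = 0.00131) lower on this scale, where it called 51.8% of all genes lower. Against wildtype replicate 1 alone the counts of 4 above and 5 below had to stay the same, so they add no support. Each of the 9 genes already lay outside both wildtype libraries. Of all genes 8.82% and 71.2% lay above and below that library.

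**Figure D2:**
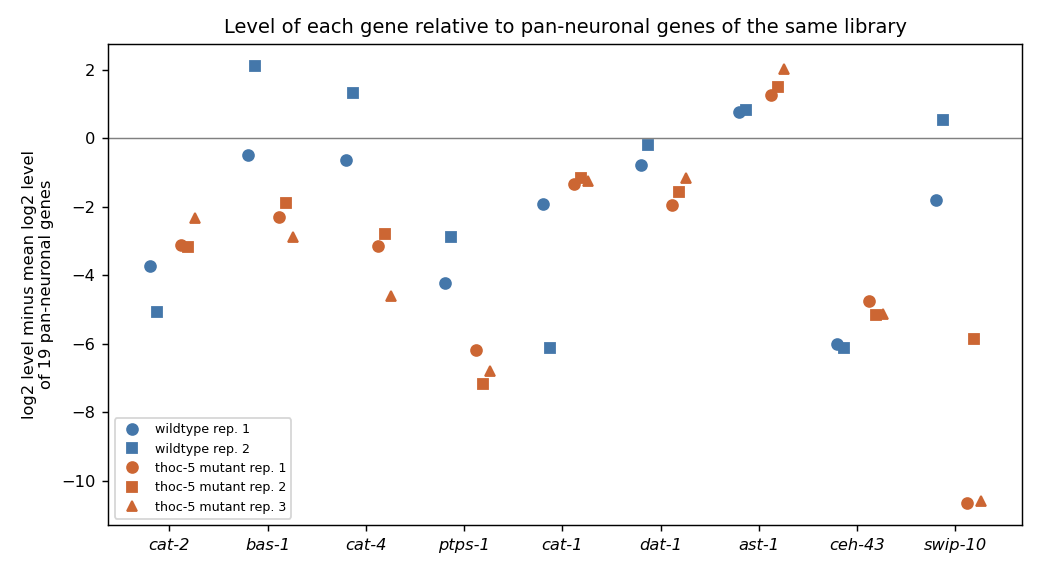
Log2 level of each gene minus the mean log2 level of 19 pan-neuronal genes, by library; the grey line marks equality with that mean. ast-1 lies above the line in all 5 libraries, and higher in the 3 mutant libraries, while bas-1, cat-4, ptps-1, dat-1 and swip-10 lie lower in the mutant libraries than in both wildtype libraries.

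**Figure D3:**
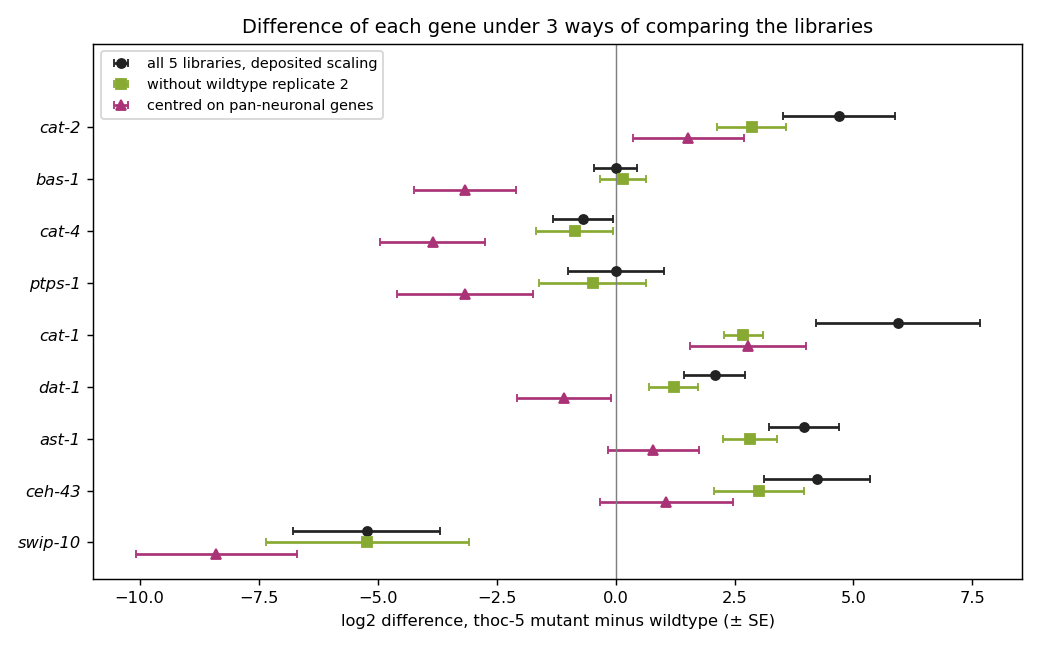
Log2 difference between mutant and wildtype (± SE) of each gene with all 5 libraries under the deposited scaling, without wildtype replicate 2, and after centring on pan-neuronal genes. The values of cat-2, cat-1, ast-1 and ceh-43 stay above 0 in all 3 settings, dat-1 crosses from 2.08 to -1.08, and swip-10 stays below 0.

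The same reads were also set against those of dat-1 in their library, a description that needs no scaling between libraries. Since dat-1 was chosen as the denominator after the values were seen, and its own difference lies between those of the genes above and below it, the split into higher and lower ratios follows from that choice and adds no support. Per dat-1 read there were 9.20, 8.42 and 9.09 ast-1 reads in mutant replicates 1 to 3, against 2.93 (exact 95% interval 2.52 to 3.42) and 2.02 (1.46 to 2.82) in wildtype. The mutant libraries thus agreed within their counting intervals, the lowest bound being 7.51. For cat-2 the ratios were 0.445, 0.327 and 0.443 in the mutant and 0.125 and 0.0175 in wildtype. For cat-1 they were 1.51, 1.32 and 0.947 against 0.444 and 0. The cofactor and decarboxylase genes had the reverse order, with 0.432, 0.429 and 0.0904 cat-4 reads per dat-1 read in the mutant and 1.09 and 2.84 in wildtype. The counting intervals overlapped between the groups for ceh-43, where wildtype replicate 2 reached up to 0.0669 and mutant replicate 3 ran from 0.0454 to 0.0857. They also overlapped for ptps-1, where wildtype replicate 1 ran from 0.0517 to 0.136 and mutant replicate 1 from 0.0331 to 0.0745.

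Genes for dopamine receptors, which sit on target cells and in part on the dopamine neurons themselves, were higher in all mutant libraries. Of the 6 tested, dop-1 to dop-6, 1 rose and none fell, against 6.97% and 5.92% of all genes. The median log2 difference was 4.27, where that of the pan-neuronal list was 3.42 and that of all genes tested 0.13. Without wildtype replicate 2 the receptors had a median of 1.87 (1.42 to 1.98) and the pan-neuronal list one of 2.16. The one that rose was dop-5, with 405 and 59.5 normalised counts in wildtype and 1707, 1355 and 1418 in the mutant (log2 difference 3.25, SE 0.79, adjusted p = 0.0477). The D2-like autoreceptor gene dop-2 had 266 and 4.25 in wildtype, against 1330.04, 952 and 923 in the mutant (log2 difference 4.82, adjusted p = 0.0714). All 6 had every mutant library above wildtype, which held for 30.1% of all genes and for 17 of the 19 pan-neuronal genes. All except dop-5 had only 1 or 4 reads in wildtype replicate 2. Relative to the pan-neuronal mean of its library each of the 6 overlapped between the groups. On that log2 scale dop-5 stood at 0.23 and -0.21 in wildtype and at 0.09, 0.29 and -0.11 in mutant replicates 1 to 3.

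Genes known from dopamine neurons and partner transcription factors gave no calls. Among trp-4, asic-1 and flp-33 the median log2 difference was 3.13 (1.56 without wildtype replicate 2), and each was higher in all mutant libraries. trp-4, the mechanosensory channel gene of these cells, had 52.3 and 69.1 normalised counts in wildtype and 226, 186 and 161 in the mutant (log2 difference 1.64, adjusted p = 0.0724). It was not lower in wildtype replicate 2 than in replicate 1. asic-1, an acid-sensing channel family gene, had 129 and 3.19 in wildtype, against 438, 193 and 366 in the mutant (log2 difference 3.75, adjusted p = 0.1001, and 1.28 without wildtype replicate 2). Of the partner factors, the PBX genes ceh-20 and ceh-40 differed in sign. ceh-20 had a log2 difference of 1.15 (adjusted p = 0.140) and the scarce ceh-40, with 18.3 and 15.9 in wildtype, against 0, 1.12 and 0 in the mutant, one of -3.82 (adjusted p = 0.0561). unc-62, a Meis-class homeobox gene, had 1053 and 483 in wildtype, against 2121, 1189.8 and 4551 in the mutant (log2 difference 1.66, adjusted p = 0.126).

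Enzymes that recycle the cofactor or break amines down included the genes that fell. Of 5 genes for cofactor recycling and cofactor-dependent oxygenases none rose and 2 fell, against 6.97% and 5.92% of all genes. The median log2 difference was -1.44, that of pcbd-1. pcbd-1 had 868 and 803 normalised counts in wildtype, against 263, 287 and 385 in the mutant, and did not pass (adjusted p = 0.0593). The dihydropteridine reductase gene qdpr-1, which regenerates tetrahydrobiopterin, had 4240.4 and 4203 normalised counts in wildtype and 370.5, 492 and 583 in the mutant. Both wildtype libraries held over 7 times the level of any mutant library, and the log2 difference of -3.15 passed (SE 0.40, adjusted p = 0.0382). Phenylalanine hydroxylase, which uses the same cofactor and in worms is found in the epidermis, is encoded by pah-1, with 17860 and 21142 in wildtype, against 979.9, 4989 and 2707 in the mutant (log2 difference -3.04, adjusted p = 0.0480). In the same list tph-1, the tryptophan hydroxylase gene of serotonin neurons, had 28.8 and 0 in wildtype, against 414, 365 and 89.7 in the mutant (log2 difference 5.46, adjusted p = 0.0587, and 3.01 without wildtype replicate 2). Epidermal marker shares were also lower in all mutant libraries. Among the mutants pah-1 was highest in replicate 2, where that share was highest, and qdpr-1 in replicate 3, where that share was lowest. In wildtype replicate 2 that share was lower than in replicate 1, while pah-1 was higher and qdpr-1 nearly equal. The part of epidermal RNA in these values was not tested.

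Among 6 tested genes of amine breakdown none rose and 2 fell, with a median of -1.86. They were the amine oxidase genes amx-2, with 1069 and 921 in wildtype, against 109, 326 and 172 in the mutant (log2 difference -2.44, adjusted p = 0.0446), and amx-3, with 88.1 and 57.4 in wildtype, against 0, 3.35 and 0 in the mutant (-5.47, adjusted p = 0.0417). In both cases all mutant libraries lay below wildtype. The decarboxylase paralogs gave no calls, with log2 differences of 1.96 for tdc-1, the tyrosine decarboxylase gene of tyramine and octopamine neurons (adjusted p = 0.0949), and 0.84 for basl-1 (adjusted p = 0.698). Of all 31 such genes around the pathway, 26 were tested, of which 1 rose and 4 fell, against 6.97% and 5.92% of all genes. Without wildtype replicate 2, which leaves 1 wildtype library, these 5 calls cannot be judged. The log2 differences were then 1.87 for dop-5, -3.16 for qdpr-1, -2.92 for pah-1, -2.54 for amx-2 and -5.77 for amx-3. Of 4 genes of other amine neurons 1 rose, the serotonin transporter gene mod-5, which had 16.6 and 0 normalised counts in wildtype and 144, 171 and 117 in the mutant (log2 difference 5.10, adjusted p = 0.0496). Without wildtype replicate 2, where mod-5 had no read, the difference was 3.03.

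**Figure D4:**
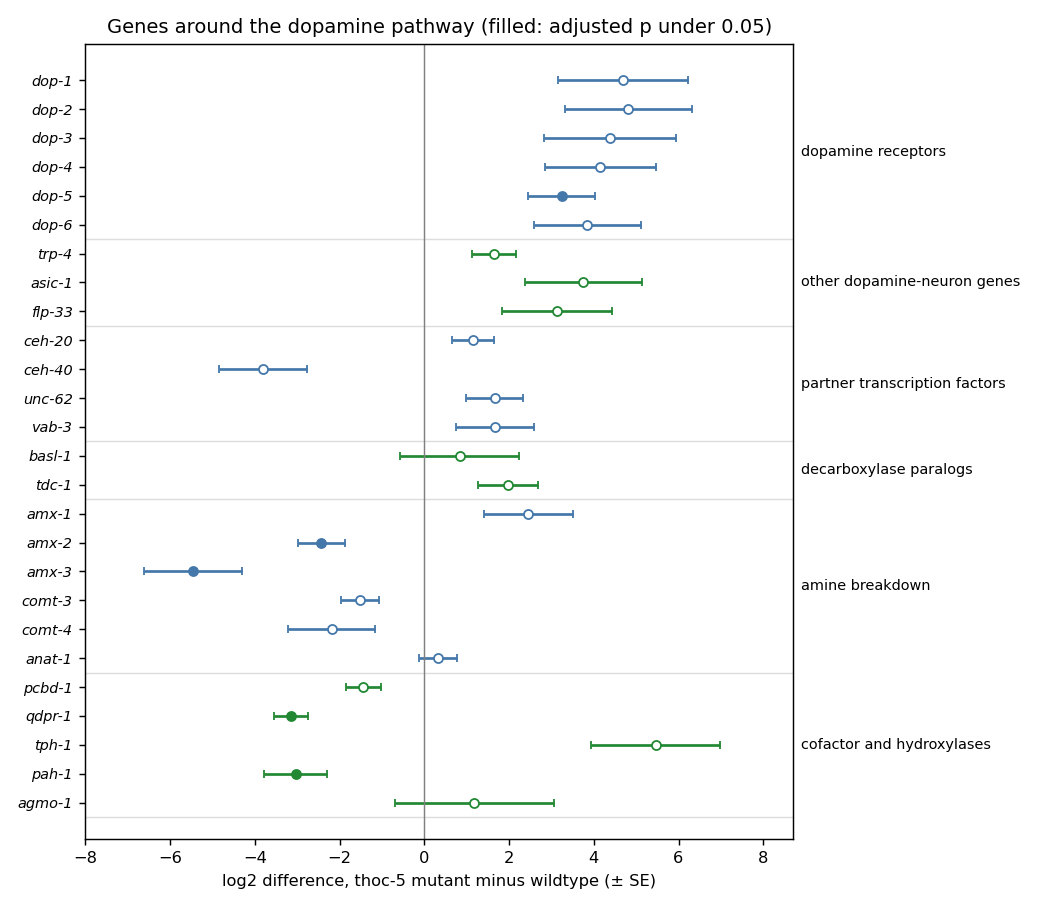
Log2 difference between mutant and wildtype (± SE) of the 26 tested genes around the pathway, by list; filled points have an adjusted p below 0.05. The 6 dopamine receptor genes all lie right of 0, and the filled points left of 0 are amx-2, amx-3, qdpr-1 and pah-1.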

How the data were processed

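Neurons were dissociated and sorted by fluorescence, and polyadenylated RNA was made into cDNA with SMARTer v4 chemistry and into libraries with Nextera XT, per the labels' protocols. Per the submitters' processing notes, the tools were Trim Galore, STAR 2.4.2a and DESeq2, and the build was ce10; no counter or annotation is given in the sources used here. The authors deposited 1 table of 42048 genes. Its values for single libraries are a signal that the authors made by dividing gene counts by the library's size factor. Whole reads could be recovered from them (100% of values within 1e-04 reads). Beside these the authors deposited, per the file headers, a log2 fold change, its SE, a score (fold change over SE), a p-value and an adjusted p-value.

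Groups were compared with limma 3.58.1 (R 4.3.3, eBayes with a trend) on log2(value + 1) over the 13787 genes with 10 or more in at least 2 of 5 libraries, two-sided, with Benjamini-Hochberg adjustment. On the recovered reads, edgeR 4.0.16 called 0 genes (3869 at an unadjusted p below 0.05) and DESeq2 1.42.0 called 2123 higher and 1595 lower. Limma called 961 higher and 816 lower. Reads carry no molecular identifiers, so exact (Clopper-Pearson) intervals and the limits of a 0, set at 3 reads, cover counting error only. The scripts were tested on simulated counts. The genes and lists were chosen with earlier results of these data known. Named outside the listed genes are those of the other dopamine lists that passed or had the 2 smallest p-values. Also named, after their values were seen, are dop-2, ceh-20, tph-1, pcbd-1, col-140, col-119, bli-1, nhr-25, rol-6, hlh-17, delm-1, vap-1, fig-1, F16F9.3 and flp-33. The same holds for the pan-neuronal genes unc-31, unc-10, unc-11, unc-119, rab-3, sng-1 and snb-1. Exon lengths are unions of Ensembl WBcel235 exons. Promoter and protein sequences were not used here, and promoter motifs were not analysed here. The alternatives were a replicate block, other pseudocounts, filters and scalings, centring on pan-neuronal genes, edgeR, DESeq2, the deposited p-values and leaving out each library; values outside the 9 genes without a wildtype library were added after seeing the data. Where 1 wildtype library was left, its spread was taken to be that of the mutant group.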

Additional observations from a re-analysis of the deposited data

How the results depend on the processing

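Of the 9 genes 2 were called higher and 0 lower in the main test. The count called higher was 0 with a replicate block, after centring on pan-neuronal genes and in edgeR, 1 with a pseudocount of 0.5 or no filter, 4 with a pseudocount of 8, with equal library totals and in DESeq2, and 0 to 5 when 1 library was left out. It was 0 without wildtype replicate 2 or without any 1 mutant replicate, and 5 without wildtype replicate 1. The count called lower was 1 with a pseudocount of 8, swip-10, and 3 after centring. The cause of these moves was not tested. Genes lying below wildtype in all mutant libraries were 5 after centring and 2 without wildtype replicate 2, against 1 (34.5% of all genes without that library); both alternatives were chosen after seeing the data.

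Of 142 single-gene values under an alternative 99 kept direction and side of the threshold, and 14 changed sign. The sign of bas-1, 0.00 in the main test, changed under upper quartile scaling (-0.087), edgeR (-0.026), centring (-3.16) and leaving out 1 library (-0.15 to 0.20). That of ptps-1 changed with the replicate block (-0.0197), upper quartile scaling (-0.0742), edgeR (-0.0373), centring (-3.16) and leaving out 1 library (-0.48 to 0.48). dat-1 changed sign after centring (-1.08). No sign changed for cat-1, cat-2, cat-4, ast-1, ceh-43 or swip-10 under these alternatives.

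Over all genes limma called 1612 higher and 636 lower with equal totals, and 43 and 7141 after centring, against 961 and 816, and the median log2 difference moved from 0.13 to 0.57 and -3.03. It called 1737 higher and 1480 lower with a pseudocount of 8, 533 and 546 with no filter, 2167 and 480 without wildtype replicate 1, and 0 without wildtype replicate 2 or any 1 mutant replicate (3415 to 4702 at an unadjusted p below 0.05). The block fits only replicates 1 and 2, since no wildtype library shares the number of mutant replicate 3, and with it 0 genes were called (3951 at an unadjusted p below 0.05). Deviations of same-numbered libraries correlated at 0.009 and 0.11, and those of differently numbered ones at -0.11 to 0.11. The deviations of 2 wildtype libraries mirror each other, so these values cannot decide whether the numbers mark pairs. With the filter of 50, ceh-43 and ptps-1 were not tested.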

Other observations

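Genes whose library profiles were closest to those of cat-2, dat-1 and ast-1 were looked for among 8994 tested genes with a mean of 50 or more, by the root mean square difference of log2 profiles over 5 libraries, each profile centred on its mean. For cat-2 they were C42C1.2 (0.11), the neuropeptide gene flp-4 (0.15) and F02A9.7 (0.18), and 12 genes lay within 0.25. flp-4 had 13.9 and 0 normalised counts in wildtype and 99.5, 63.6 and 125.7 in the mutant. For dat-1 they were flcn-1, the folliculin homolog (0.12), pat-3, the beta integrin (0.13), and ZK180.7 (0.14), with 44 within 0.25. pat-3 had 369 and 134 in wildtype, against 737, 636 and 1163 in the mutant. For ast-1 they were T02E9.5 (0.16), Y48C3A.5 (0.17) and F01E11.17 (0.17), with 11 within 0.25. With 5 libraries such likeness says only that these levels moved alike.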
